A study of Mus musculus with 12 samples.

Results

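The cytotoxic granule genes examined here are 10 genes chosen by symbol from the 54532 genes listed for each library. They encode granzymes (Gzma, Gzmb, Gzmc, Gzmk), the pore former perforin (Prf1), the granule proteoglycan serglycin (Srgn), intracellular serpins that protect against granule proteases (Serpinb9, Serpinb6b), the granule membrane protein NKG7 (Nkg7) and the surface death ligand FasL (Fasl). RNA-seq was performed on primary CD8+ T cells from the spleen and lymph nodes of wild-type C57BL/6 mice, activated in culture. The study's general protocol activates with plate-bound anti-CD3 and anti-CD28, whereas its siRNA protocol names PHA, CD3 or IL-2. Which stimulus these libraries received is not stated. The cells received a non-targeting siRNA (siNTC) or an siRNA against Creb1 (siCreb1), as self-delivering Accell siRNA in medium with IL-2, so that knockdown was transient and each library averaged over all cells of a culture. They were then given 20 μM trans-vaccenic acid (TVA), a dietary trans fatty acid, or the solvent DMSO, for 24 h. This gave 4 groups of 3 libraries: siNTC, siNTC plus TVA, siCreb1 and siCreb1 plus TVA. All groups share the genotype, the activation and the siRNA procedure, and no library of cells without siRNA or without activation was analysed here. No source used here says whether the 3 libraries of a group came from separate mice, so p-values measure the spread between these libraries, which may be technical.

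Cytotoxic CD8+ T cells kill by releasing secretory lysosomes at the contact with a target cell. Perforin opens the target membrane, granzymes enter and cleave proteins that trigger apoptosis, and serglycin holds these cargo proteins in the granule core. The killer cell carries cytosolic serpins that inactivate leaked granzymes, and FasL gives it a granule-independent route to the same end through the receptor Fas. CREB, the product of Creb1, is a transcription factor that is phosphorylated downstream of cAMP and binds the palindromic cAMP response element. The question the design addresses is whether transcript levels under TVA depend on Creb1.

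In control cells TVA raised 3 of the 9 members that could be tested (limma, Benjamini-Hochberg adjusted p under 0.05), Gzmb (1.24-fold), Serpinb6b (1.22-fold) and Nkg7 (1.08-fold), where 4.49% of all tested genes were called higher. Creb1 knockdown without TVA raised 3 of 9 (6.52% of all tested genes called higher), namely Gzmb (1.35-fold), Serpinb6b (1.19-fold) and Nkg7 (1.06-fold), and lowered 2 of 9 (7.21% called lower), Prf1 (0.758 of the control mean) and Srgn (0.886). With TVA present, knockdown cells had less Srgn (0.903 of the control mean) and Serpinb6b (0.85), 2 of 9 members where 5.51% of all tested genes were called lower. In Creb1 knockdown cells TVA changed 0 of the 9 by the same limma test, where 0.537% of all tested genes were called. An unadjusted p under 0.05 was found there for 5 of the 9 and for 1106 of all 11550 tested genes. Limma-voom on the recovered reads also called 0 of the 9, where it called 157 of all tested genes. It gave 3 of the 9 an unadjusted p under 0.05, against 1352 of all 11550. The interaction, the TVA effect in siCreb1 cells minus that in siNTC cells, was called below 0 by limma for 3 of 9, Gzmb, Serpinb6b and Nkg7, where 1.78% of all tested genes were called below 0. Fasl, Serpinb9, Gzma and Gzmc passed the adjusted threshold in none of the 5 comparisons, and Gzmk was too low to test. Comparisons with the siNTC libraries share them as controls, and those with the siCreb1 libraries share these, so calls in different comparisons are not independent.

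**Figure D1:**
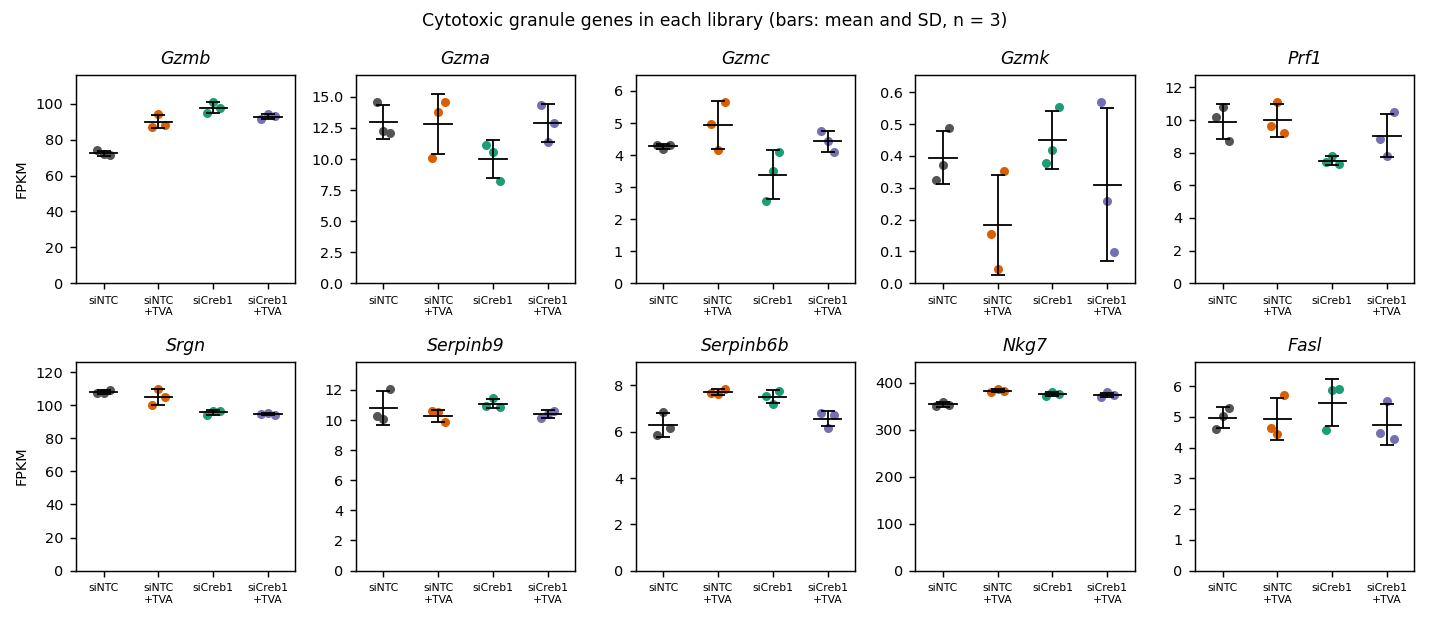
FPKM (vertical axis, from 0, with a separate scale per gene) of the 10 genes in the 12 libraries, as points in 4 groups with the mean and SD (n = 3). Gzmb lies at 71.4 to 74.1 FPKM in siNTC cells and at 87.2 to 101 FPKM in the other 3 groups, whereas the libraries of Fasl overlap in every pair of groups compared.

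FPKM corrects the number of reads for gene length and for sequencing depth, so it allows levels to be set side by side between genes. Averaged over the 12 libraries, Nkg7 was highest (372 FPKM, rank 130 among the 11550 tested genes), followed by Srgn (101 FPKM, rank 421) and Gzmb (88.2 FPKM, rank 492). Gzma (12.2 FPKM), Serpinb9 (10.6), Prf1 (9.11), Serpinb6b (7.02), Fasl (5.03) and Gzmc (4.25) formed a middle range, and Gzmk came last (0.335 FPKM). Nkg7 lay above Srgn, Gzmb above Gzma and Gzmc above Gzmk in every library with no overlap of their ranges. All other neighbours in this order overlapped over the 12 libraries, including Srgn and Gzmb, for which Srgn was the higher in 9 of 12 libraries.

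The promoters of the 5 members that were called in a comparison, and of Gzmc, are shown because the knocked-down factor binds a known element. The 300 bases around each annotated start (250 before and 50 after, RefSeq, GRCm38.p6) were searched for the full cAMP response element TGACGTCA and for its shorter core TGACG on both strands. The full element contains the core and reads the same on both strands. All 10 members matched a RefSeq promoter by symbol, with 11 windows in all because Srgn has an additional start. Below, 100 bases before and 25 from the start are printed 5′ to 3′ in the direction of transcription, in lower case with matches in capitals, for Gzmb (chr14:56262310-56262434, minus strand), Gzmc (chr14:56234633-56234757, minus strand), Prf1 (chr10:61297736-61297860, plus strand), Srgn (chr10:62527421-62527545, minus strand, and its additional start at chr10:62507733-62507857), Serpinb6b (chr13:32965161-32965285, plus strand) and Nkg7 (chr7:43437038-43437162, plus strand).
Gzmb: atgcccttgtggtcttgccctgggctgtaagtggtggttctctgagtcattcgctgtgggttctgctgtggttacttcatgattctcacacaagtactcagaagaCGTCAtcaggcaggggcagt
Gzmc: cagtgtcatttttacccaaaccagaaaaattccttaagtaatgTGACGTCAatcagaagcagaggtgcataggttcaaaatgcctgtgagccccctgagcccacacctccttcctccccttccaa
Prf1: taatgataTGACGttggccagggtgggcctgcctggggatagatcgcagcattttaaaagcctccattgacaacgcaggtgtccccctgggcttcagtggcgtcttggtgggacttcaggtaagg
Srgn: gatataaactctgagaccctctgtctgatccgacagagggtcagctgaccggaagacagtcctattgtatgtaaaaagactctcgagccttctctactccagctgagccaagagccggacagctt
Srgn, additional start: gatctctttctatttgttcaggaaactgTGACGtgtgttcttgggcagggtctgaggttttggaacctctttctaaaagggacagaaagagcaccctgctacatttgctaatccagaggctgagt
Serpinb6b: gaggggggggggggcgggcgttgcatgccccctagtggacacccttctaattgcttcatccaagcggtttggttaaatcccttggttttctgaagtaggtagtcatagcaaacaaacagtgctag
Nkg7: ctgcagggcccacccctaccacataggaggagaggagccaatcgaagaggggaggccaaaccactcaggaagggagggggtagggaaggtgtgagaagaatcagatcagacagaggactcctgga
The full element was found in 1 of the 10 members, Gzmc, starting 57 bases before its start. This was 1 of the 11 member windows, against 1.79% of all 32851 windows. The core was found in 5 of the 10 members and in 5 of the 11 member windows, against 20.8% of all windows. It lay 92 bases before the start in Prf1, 48 before it in Fasl, 72 before the additional start of Srgn, within the full element in Gzmc, and 5 bases after the RefSeq start in Gzmb, which lies upstream of the gene boundary in the files. These letters were not in the windows of Nkg7, Serpinb6b, Serpinb9, Gzma or Gzmk. The RefSeq starts of Gzmk (within chr13:113180941-113181065) and Serpinb9 (within chr13:33004441-33004565) lie inside the gene spans given below. The bases at the outer boundaries of these spans were therefore not searched. Whether CREB binds any of these windows was not measured here.

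Granzyme B, an aspartate-directed protease that activates caspases in target cells, is encoded by Gzmb (ENSMUSG00000015437, chromosome 14, 56258838 to 56262260, minus strand). Its level was 74.1, 71.7 and 71.4 FPKM in siNTC cells and 87.2, 94.1 and 88.3 FPKM in siNTC plus TVA cells. It was 95, 101 and 97.4 FPKM in siCreb1 cells and 91.4, 94.1 and 93.0 FPKM in siCreb1 plus TVA cells. The siNTC libraries were the 3 lowest of the 12, and no library of another group overlapped them. TVA raised Gzmb by 0.31 on the log2(FPKM + 1) scale in siNTC cells (standard error 0.03; limma, Benjamini-Hochberg adjusted p = 0.000247). 

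Creb1 knockdown without TVA raised Gzmb by 0.43 on the same scale (standard error 0.03; limma adjusted p = 5.14e-05). In siCreb1 cells the TVA libraries lay below those without TVA, with a log2 fold change of −0.08 that missed the adjusted threshold (limma, unadjusted p = 0.0442, adjusted p = 0.504). With TVA, the siCreb1 and siNTC libraries overlapped and the log2 fold change was 0.05 (95% confidence interval −0.03 to 0.12; limma adjusted p = 0.406), although quantile normalization gave 0.11 (limma adjusted p = 0.0447). The interaction for Gzmb was −0.38 (standard error 0.05; limma adjusted p = 0.00254). The Gzmb calls for TVA in siNTC cells, for knockdown without TVA and for the interaction held in every alternative and with every library left out. They rested on 1792 to 3380 reads per library.

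Granzyme A, a tryptase, is encoded by Gzma (ENSMUSG00000023132, chromosome 13, 113093825 to 113100981, minus strand). Its level was 14.6, 12.3 and 12.1 FPKM in siNTC cells, 10.1, 13.8 and 14.6 in siNTC plus TVA, 11.1, 10.5 and 8.23 in siCreb1 and 14.3, 11.4 and 12.9 FPKM in siCreb1 plus TVA cells. The siCreb1 libraries lay below both siNTC and siCreb1 plus TVA libraries without overlap, unlike Gzmb, whose siCreb1 libraries were the highest. The log2 fold change with knockdown was −0.36 (standard error 0.14; limma, unadjusted p = 0.0303, adjusted p = 0.129), and that with TVA in siCreb1 cells was 0.34 (standard error 0.14; limma, unadjusted p = 0.0368, adjusted p = 0.485). Neither passed the adjusted threshold. Gzma is also made by NK cells, and the summed level of 8 NK cell markers ran from 19.2 to 22.0 FPKM in siNTC cells, 21.9 to 23.3 in siNTC plus TVA, 21.3 to 22.8 in siCreb1 and 23.8 to 25.3 FPKM in siCreb1 plus TVA cells. Of these markers 5 had a mean of at least 1 FPKM and none was at 0. Cd160, which activated CD8+ T cells also express, was the highest of them, and Klrb1c and Ncr1, encoding defining NK cell receptors, stayed at or under 3.92 and 1.87 FPKM in every library. Ncr1 lay at 0.969 to 1.13 FPKM in siCreb1 and at 1.71 to 1.87 FPKM in siCreb1 plus TVA cells, without overlap. Klra8, another of these markers, separated the other way, at 1.3 to 1.57 FPKM in siCreb1 and 0.814 to 1.19 FPKM in siCreb1 plus TVA cells. In that comparison 4 of the 5 tested markers were higher and 1 lower, and limma called 0 of them. The part of NK cells in the Gzma, Prf1 and Gzmb values was not tested.

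Gzmc (ENSMUSG00000079186, chromosome 14, 56231441 to 56234656, minus strand) encodes granzyme C, which lies in the same gene cluster as Gzmb and carries the full cAMP response element printed above. It had 4.31, 4.18 and 4.32 FPKM in siNTC cells, 4.96, 4.17 and 5.66 in siNTC plus TVA, 2.57, 3.5 and 4.10 in siCreb1 and 4.76, 4.43 and 4.10 FPKM in siCreb1 plus TVA cells. The 3 siCreb1 libraries were below all siNTC libraries, but only 48 to 103 reads per library stood behind these values. The log2 fold change with knockdown was −0.28 (standard error 0.12; limma, unadjusted p = 0.046, adjusted p = 0.169), and with TVA in siCreb1 cells it was 0.32 (standard error 0.12; limma, unadjusted p = 0.0258, adjusted p = 0.441). Neither passed the adjusted threshold, and how reads shared by the closely related granzyme genes of this cluster were counted is not given in the sources used here.

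Gzmk (ENSMUSG00000042385, chromosome 13, 113171608 to 113225908, minus strand) encodes granzyme K, a tryptase found in memory CD8+ T cells. It had 1 to 19 reads per library, or 0.325, 0.372 and 0.486 FPKM in siNTC cells, 0.156, 0.0433 and 0.354 in siNTC plus TVA, 0.379, 0.419 and 0.554 in siCreb1 and 0.570, 0.259 and 0.0978 FPKM in siCreb1 plus TVA cells. Gzmk was therefore below the minimum mean of 1 FPKM. Over both siRNAs the 6 TVA libraries averaged 0.247 and the 6 others 0.422 FPKM (exact permutation test over all divisions into 6 and 6, two-sided, p = 0.0628). Over both TVA conditions the 6 siCreb1 libraries averaged 0.380 and the 6 siNTC libraries 0.289 FPKM (exact permutation test, two-sided, p = 0.392). Neither difference passed 0.05, but that with TVA turned on 1 library: without siCreb1 plus TVA replicate 1 the exact permutation p was 0.00433. Gzmk overlaps Esm1 on the opposite strand (0 to 0.103 FPKM), and whether the counting used strand is not given in the sources used here, so its few reads are uncertain.

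Perforin, which granzymes need to reach the target cytosol, is encoded by Prf1 (ENSMUSG00000037202, chromosome 10, 61297833 to 61304680, plus strand). Its level was 10.2, 10.8 and 8.73 FPKM in siNTC cells, 9.61, 11.1 and 9.23 in siNTC plus TVA, 7.42, 7.81 and 7.30 in siCreb1 and 8.85, 7.83 and 10.5 FPKM in siCreb1 plus TVA cells. The 3 siCreb1 libraries were the lowest of the 12. Knockdown without TVA changed Prf1 by −0.35 (standard error 0.10; limma adjusted p = 0.0422). This call was lost in 4 of 9 alternatives and when any of 7 of the 12 libraries was left out (limma adjusted p from 0.0148 to 0.131 over all alternatives), including each siCreb1 library, with log2 fold changes between −0.43 and −0.29. With TVA the difference between siCreb1 and siNTC libraries was −0.13 (95% confidence interval −0.36 to 0.09; limma adjusted p = 0.443), and the libraries overlapped. TVA moved Prf1 by 0.01 in siNTC cells (95% confidence interval −0.21 to 0.23; limma adjusted p = 0.969) and by 0.23 in siCreb1 cells (limma, unadjusted p = 0.0433, adjusted p = 0.502). The interaction was 0.22 (limma adjusted p = 0.532).

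Serglycin, the proteoglycan that packs granzymes and perforin, is encoded by Srgn (ENSMUSG00000020077, chromosome 10, 62493833 to 62527451, minus strand). Its level was 108, 107 and 109.6 FPKM in siNTC cells, 100.2, 109.9 and 105 in siNTC plus TVA, 94.1, 96.8 and 96.8 in siCreb1 and 95, 95.2 and 94.3 FPKM in siCreb1 plus TVA cells. The 6 knockdown libraries were all below the 6 control libraries. Srgn fell by 0.17 on the log2 scale with knockdown without TVA (standard error 0.03; limma adjusted p = 0.00432). With TVA present it changed by −0.15 (standard error 0.03; limma adjusted p = 0.014). Quantile normalization reduced these values to −0.09 (limma adjusted p = 0.101) and −0.06 (limma adjusted p = 0.268), and rescaling to TPM reduced the value with TVA to −0.09 (limma adjusted p = 0.0874). With only the libraries compared, the call with TVA was also lost (limma adjusted p = 0.0555). TVA left Srgn within −0.11 to 0.02 in siNTC cells and −0.08 to 0.05 in siCreb1 cells (95% confidence intervals of the log2 fold change), and the interaction was 0.03 (limma adjusted p = 0.838).

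Serglycin is also a granule protein of platelets and megakaryocytes, whose markers moved with it. The summed level of 4 such markers ran from 168 to 178 FPKM in siNTC cells, 161 to 166 in siNTC plus TVA, 104 to 108 in siCreb1 and 125 to 132 FPKM in siCreb1 plus TVA cells, with all 4 above 1 FPKM. Ppbp, encoding a platelet chemokine, had a log2 fold change of −0.79 with knockdown (standard error 0.06; limma adjusted p = 2.94e-05), and Pf4, encoding platelet factor 4, had −0.62 (standard error 0.05; limma adjusted p = 5.5e-05). All 4 markers were called lower with knockdown without TVA and 3 of the 4 with TVA. Within the knockdown cells the sum was higher with TVA, where the Srgn libraries overlapped. The part of platelet RNA in the Srgn difference was not tested, and in bulk RNA fewer cells of a type and less RNA per cell cannot be told apart.

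**Figure D2:**
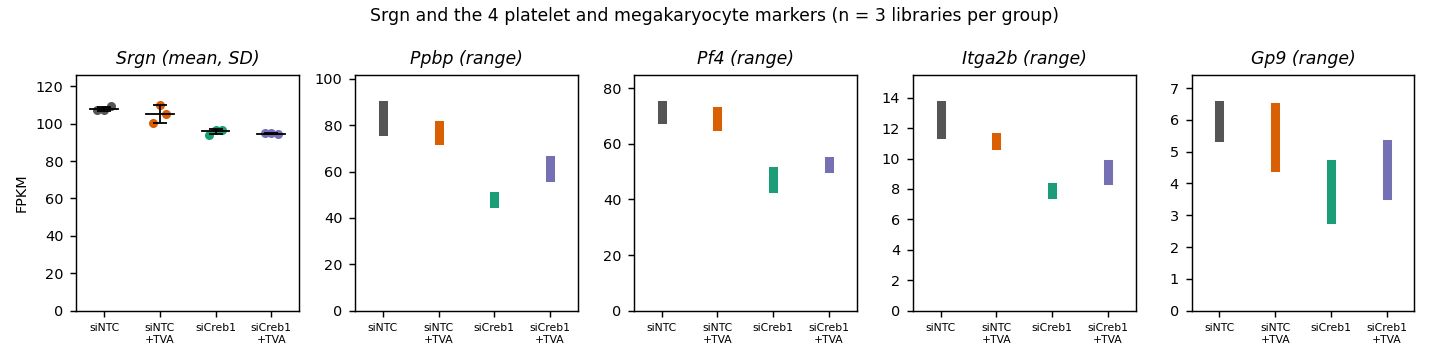
FPKM (vertical axis, from 0) of Srgn in each library, with the mean and SD (n = 3), and the lowest-to-highest range per group of the platelet and megakaryocyte markers Ppbp, Pf4, Itga2b and Gp9. The 6 knockdown libraries of Srgn lie at 94.1 to 96.8 FPKM, and Ppbp lies at 46.4 to 49.6 FPKM in siCreb1 against 77.7 to 88.6 FPKM in siNTC cells.

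Serpinb6b (ENSMUSG00000042842, chromosome 13, 32965209 to 32979067, plus strand) encodes a clade B serpin of the family of intracellular granzyme inhibitors. It had 5.87, 6.86 and 6.18 FPKM in siNTC cells, 7.66, 7.65 and 7.85 in siNTC plus TVA, 7.53, 7.22 and 7.78 in siCreb1 and 6.80, 6.18 and 6.70 FPKM in siCreb1 plus TVA cells. The libraries with either TVA or knockdown lay above all siNTC libraries, and those with both lay within the siNTC range. TVA raised it by 0.26 in siNTC cells (standard error 0.05; limma adjusted p = 0.0153), and knockdown without TVA raised it by 0.22 (standard error 0.05; limma adjusted p = 0.0215). With TVA present, knockdown cells had less of it (log2 fold change −0.21, standard error 0.05; limma adjusted p = 0.0367). TVA in siCreb1 cells gave −0.17, with no overlap of the libraries, and missed the adjusted threshold (limma, unadjusted p = 0.00925, adjusted p = 0.305).

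The interaction for Serpinb6b was −0.43 (standard error 0.08; limma adjusted p = 0.015) and was called in all alternatives and with every library left out. The other calls of this gene were less firm. That for knockdown with TVA was lost in 4 of 9 alternatives and in 7 of 12 fits without a library, among them every fit that left out a siNTC plus TVA or siCreb1 plus TVA library (limma adjusted p from 0.0188 to 0.129). The call for knockdown without TVA was lost with all genes above 0 and with only the libraries compared. It was also lost without siNTC replicate 1 or 3 and without siCreb1 replicate 1 or 3 (limma adjusted p from 0.00896 to 0.0813 over all alternatives). The call for TVA in siNTC cells was lost with only the libraries compared, without siNTC replicate 3 and without siNTC plus TVA replicate 3 (limma adjusted p from 0.00551 to 0.0822 over all alternatives). Between 265 and 389 reads per library stood behind these values.

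Serpinb9 (ENSMUSG00000045827, chromosome 13, 33003250 to 33017957, plus strand) encodes the serpin that inactivates granzyme B. It had 10.2, 10.0 and 12.1 FPKM in siNTC cells, 10.6, 10.5 and 9.88 in siNTC plus TVA, 10.9, 11.4 and 10.9 in siCreb1 and 10.1, 10.4 and 10.6 FPKM in siCreb1 plus TVA cells. In the 4 comparisons between groups its libraries overlapped, except that those of siCreb1 plus TVA lay below those of siCreb1 cells (−0.09 on the log2 scale, 95% confidence interval −0.22 to 0.04; limma adjusted p = 0.707). The serpin directed at granzyme B thus gave no call where Gzmb itself did, with a confidence interval of −0.18 to 0.08 for TVA in siNTC cells and of −0.09 to 0.17 for knockdown without TVA. Serpinb9b, a relative of this gene, had 3 to 17 reads per library, and Serpinb6a, the relative of Serpinb6b, lay between 1.97 and 3.04 FPKM and was not called in any comparison.

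NKG7, a membrane protein of cytotoxic granules that promotes their release, is encoded by Nkg7 (ENSMUSG00000004612, chromosome 7, 43437073 to 43438249, plus strand). Its level was 351, 359.8 and 352 FPKM in siNTC cells, 381, 387 and 383 in siNTC plus TVA, 372, 379 and 376 in siCreb1 and 370.4, 379 and 373 FPKM in siCreb1 plus TVA cells. The siNTC libraries were the 3 lowest and the siNTC plus TVA libraries the 3 highest of the 12. TVA raised Nkg7 by 0.11 in siNTC cells (standard error 0.02; limma adjusted p = 0.00361), and knockdown without TVA raised it by 0.08 (standard error 0.02; limma adjusted p = 0.0129). In siCreb1 cells the TVA effect was −0.01 (95% confidence interval −0.05 to 0.03), and with TVA knockdown and control cells differed by −0.03 (limma adjusted p = 0.262), a value that turned to 0.02 with quantile normalization or TPM. The calls for TVA in siNTC cells and for knockdown without TVA were lost in a fit of only the libraries compared (limma adjusted p = 0.0589 and 0.0861), and the latter also without a mean-variance trend (limma adjusted p = 0.0579). The interaction was −0.12 (standard error 0.03; limma adjusted p = 0.0427). The interaction call was lost in 5 of 8 alternatives and in 11 of 12 fits without a library, all but the fit without siNTC replicate 2 (limma adjusted p from 0.0354 to 0.231), while its value stayed between −0.14 and −0.11. These differences are small, at most 8.2% of the siNTC mean, and 5721 to 8672 reads per library stood behind them.

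**Figure D3:**
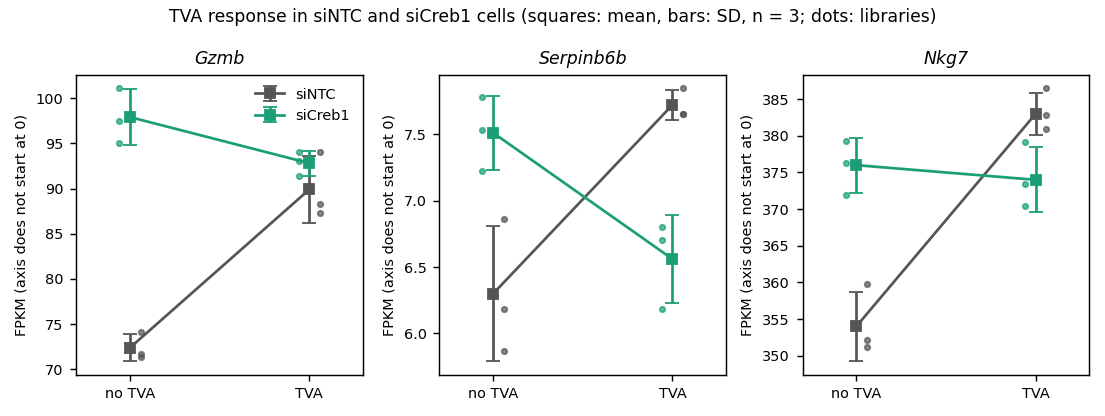
FPKM (vertical axis, not from 0) of Gzmb, Serpinb6b and Nkg7 without and with TVA, for siNTC and siCreb1 cells, with squares for means, bars for SD (n = 3) and dots for libraries. The siNTC line rises in each panel (Gzmb from 72.4 to 89.9 FPKM), and the siCreb1 line is flat or falls (Gzmb from 97.9 to 92.8 FPKM).

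FasL is encoded by Fasl (ENSMUSG00000000817, chromosome 1, 161780689 to 161788495, minus strand). It had 4.60, 5.05 and 5.30 FPKM in siNTC cells, 4.64, 4.44 and 5.71 in siNTC plus TVA, 4.57, 5.89 and 5.91 in siCreb1 and 4.48, 5.51 and 4.28 FPKM in siCreb1 plus TVA cells. The libraries overlapped in each comparison between groups. The 95% confidence intervals of its log2 fold changes between groups reached down to −0.41 (TVA in siCreb1 cells) and up to 0.35 (knockdown without TVA), and that of the interaction from −0.50 to 0.21. It was not called in any of the 5 comparisons.

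**Figure D4:**
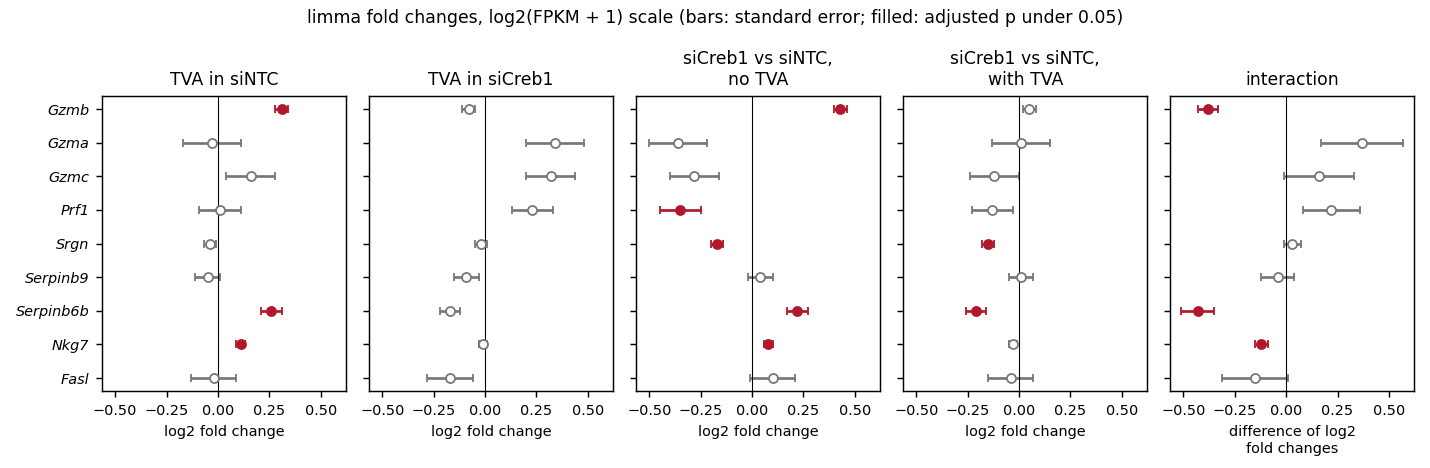
Log2 fold changes on the log2(FPKM + 1) scale (horizontal axis) of the 9 tested genes in the 5 comparisons, with standard errors as bars and filled symbols for limma adjusted p under 0.05. Gzmb is at 0.31 with TVA in siNTC cells, 0.43 with knockdown and −0.38 for the interaction, while no symbol is filled for TVA in siCreb1 cells.

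As a list, the members did not move in 1 direction. The median log2 fold change of the 9 tested members was 0.011 with TVA in siNTC cells, against −0.006 over all tested genes, and 0.042 with knockdown without TVA, against −0.001. With knockdown in TVA-treated cells it was −0.043 against −0.012, and for the interaction −0.036 against 0.002. For TVA in siCreb1 cells it was −0.016 against −0.001, and the members with an unadjusted p under 0.05 there split by direction, with Gzma, Gzmc and Prf1 above 0 and Gzmb and Serpinb6b below 0.

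Of the 6 other granzymes, Gzmm, encoding granzyme M, was the only one that reached the minimum level, with group means of 5.59 FPKM in siNTC cells, 6.87 in siNTC plus TVA, 7.46 in siCreb1 and 7.31 in siCreb1 plus TVA cells. It was not called by limma with the main settings in any comparison. Its log2 fold change was 0.252 with TVA in siNTC cells and 0.358 with knockdown without TVA, both at an unadjusted limma p under 0.05. The interaction was −0.271. For knockdown without TVA it was called with a minimum mean of 5 FPKM, with TPM, with limma-voom and without siNTC plus TVA replicate 2. Gzmd, Gzme, Gzmf and Gzmg, neighbours of Gzmb on chromosome 14, stayed under 1 FPKM in every library, and Gzmn was at 0 reads in all 12.

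Among 13 genes for granule proteases and their maturation, 11 were tested. With knockdown without TVA 1 rose and 3 fell, where 6.52% of all tested genes were called higher and 7.21% lower. With knockdown in the presence of TVA 1 rose and 3 fell, where 4.64% were called higher and 5.51% lower. Ctsw, encoding the lymphocyte protease cathepsin W, rose (log2 fold change 0.15 without and 0.18 with TVA; limma adjusted p = 0.00535 and 0.00384), and Ctsl, encoding the lysosomal protease cathepsin L, fell (−0.51 and −0.42; limma adjusted p = 0.00309 and 0.0116). The Ctsw call without TVA was lost with only the libraries compared. Ctsc, encoding cathepsin C, which removes the propeptide of granzymes, had −0.13 with TVA (limma adjusted p = 0.0306), a call lost in 5 of 9 alternatives and 5 of 12 fits without a library. With TVA, limma called 0 of the 11 in siNTC cells (2 at an unadjusted p under 0.05, 1 called by limma-voom) and 0 in siCreb1 cells (2 at an unadjusted p under 0.05, 2 called by limma-voom). Of all 11550 tested genes, 2417 had such an unadjusted p in siNTC and 1106 in siCreb1 cells, and limma-voom called 1013 and 157.

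Granule exocytosis and membrane genes gave calls in the knockdown comparisons. Of 28 genes 26 were tested. With TVA, limma called 0 of them in siNTC cells (3 at an unadjusted p under 0.05, 2 called by limma-voom) and 0 in siCreb1 cells (1 at an unadjusted p under 0.05, 0 called by limma-voom). Over all 11550 tested genes the unadjusted counts were 2417 in siNTC and 1106 in siCreb1 cells, and limma-voom called 1013 and 157. Without TVA 2 rose and 5 fell with knockdown (6.52% of all tested genes called higher, 7.21% lower), among them Lamp1, the lysosome membrane marker used to follow degranulation (−0.22, limma adjusted p = 0.0105), Stx11, a syntaxin needed for granule fusion (−0.25, limma adjusted p = 0.0473), and Lyst, a regulator of lysosome size (0.20, limma adjusted p = 0.000886). With TVA 2 rose and 3 fell (4.64% called higher, 5.51% lower), among them Lamp1 (−0.20, limma adjusted p = 0.0217), the vesicle fusion gene Vamp8 (−0.17, limma adjusted p = 0.00847) and its relative Vamp2 (0.21, limma adjusted p = 0.0101). The Stx11 call was lost in 4 of 8 alternatives and 9 of 12 fits without a library, those of Lamp1 and Vamp8 in 1 to 3 of 9 alternatives, TPM among them each time, and that of Lamp1 with TVA also in 3 of 12 fits without a library.

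Other serpins and protease inhibitors gave 1 call in each direction of 7 tested with knockdown without TVA (6.52% of all tested genes called higher, 7.21% lower), for Serpina3g, a serpin of activated T cells (0.19, limma adjusted p = 0.0247), and Cst3, encoding cystatin C (−0.13, limma adjusted p = 0.0464). Cst3 also had −0.18 with TVA (limma adjusted p = 0.0198). The Cst3 calls were lost in 6 of 9 alternatives and 10 of 12 fits without a library for knockdown without TVA, and in 3 of 9 and 4 of 12 with TVA, and that of Serpina3g in 2 of 9 and 4 of 12. Of 12 tested death ligands and receptors Ltb, encoding lymphotoxin beta, fell with TVA in siNTC cells (−0.15, limma adjusted p = 0.00415), where 2.88% of all tested genes were called lower. Knockdown without TVA lowered Ltb (−0.17, limma adjusted p = 0.00145) and raised Casp8, encoding the caspase downstream of Fas (0.14, limma adjusted p = 0.0451). The Casp8 call was lost in 5 of 9 alternatives and 9 of 12 fits without a library, and both Ltb calls were lost with quantile normalization, that for TVA also with only the libraries compared.

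Among 18 tested regulators of granule genes, Il2ra, encoding the high-affinity IL-2 receptor chain, was called for the interaction (−0.30, limma adjusted p = 0.00698), a call that was lost with TPM, unlike that of Gzmb. It rose with knockdown without TVA (0.23, limma adjusted p = 0.00132) and fell with TVA in siCreb1 cells (−0.28, limma adjusted p = 0.00232). Its group means were 17.2 FPKM in siNTC cells, 17.5 in siNTC plus TVA, 20.4 in siCreb1 and 16.7 in siCreb1 plus TVA cells, so that, unlike Gzmb, it did not differ with TVA in siNTC cells at the adjusted threshold. Tcf7, encoding the memory-associated factor TCF1, fell with TVA in siNTC cells (−0.11, limma adjusted p = 0.00889) and with knockdown without TVA (−0.11, limma adjusted p = 0.00611), the comparisons in which Gzmb rose. Both Tcf7 calls were lost with quantile normalization and with only the libraries compared, the first also with all genes above 0 and the other also with TPM. Id2, encoding an inhibitor of E proteins, fell with knockdown without TVA (−0.13, limma adjusted p = 0.00542), and Runx3, encoding a factor of the CD8 lineage (0.15, limma adjusted p = 0.0124), and Stat5a, encoding a mediator of IL-2 signals (0.14, limma adjusted p = 0.0376) were higher with knockdown in TVA-treated cells. The Stat5a call was lost in 3 of 9 alternatives and 9 of 12 fits without a library, and that of Id2 with TPM and with only the libraries compared. Of the 18, limma called 1 lower with TVA in siNTC cells (2.88% of all tested genes) and 1 in siCreb1 cells (0.537% in either direction). Knockdown called 1 higher and 2 lower without TVA (6.52% and 7.21%) and 2 higher with TVA (4.64%). The interaction called 1 below 0 (1.78%). With TVA in siNTC cells 7 of the 18 had an unadjusted limma p under 0.05 and limma-voom called 2, against 2417 and 1013 of all 11550 tested genes. With knockdown without TVA 9 had such a p and limma-voom called 6, against 3248 and 1983 of all tested genes. Tbx21 and Eomes, the T-box factors known to drive Gzmb and Prf1, were not called with the main settings in any comparison. In the order siNTC, siNTC plus TVA, siCreb1 and siCreb1 plus TVA, group means were 14.8, 17.1, 16.8 and 17.6 FPKM for Tbx21. Those of Eomes were 28.3, 30.3, 29.8 and 30.1 FPKM. The part of either factor in the Gzmb and Prf1 values was not tested.

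**Figure D5:**
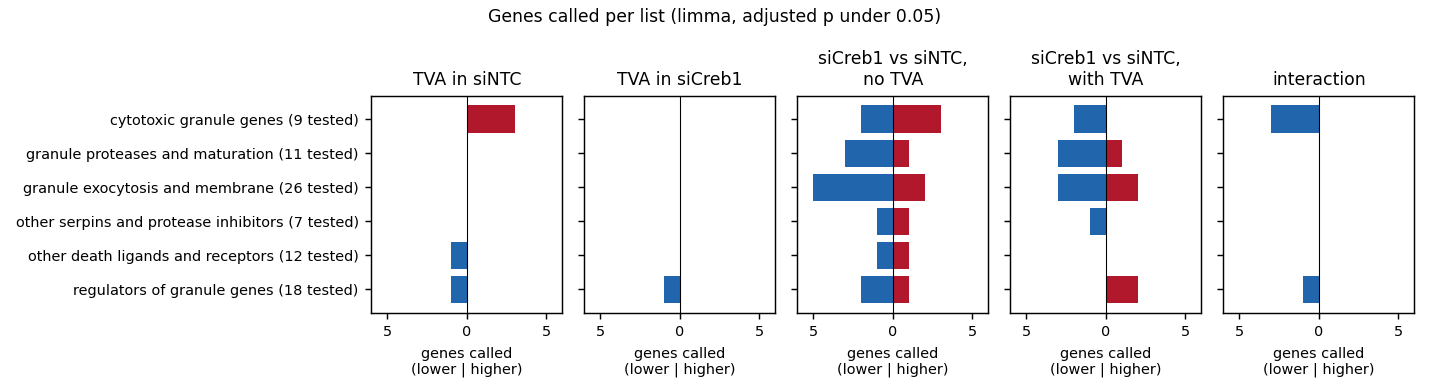
Number of genes called lower (left of 0) and higher (right of 0) at a limma adjusted p under 0.05 in the 9 tested cytotoxic granule genes and 5 wider lists, for the 5 comparisons. TVA in siNTC cells called 3 of 9 granule genes higher (4.49% of all tested genes). Knockdown without TVA called 5 of 26 exocytosis and membrane genes lower and 2 higher (7.21% and 6.52% of all tested genes).

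Recovered reads per library ran from 16660234 to 24602484. Creb1, the targeted gene, lay between 10.3 and 12.4 FPKM in the 6 siNTC libraries and between 1.17 and 1.81 FPKM in the 6 siCreb1 libraries (exact permutation test, two-sided, p = 0.00216). All 10 CD8+ T cell markers were expressed, with a sum of 3724 to 4214 FPKM. With knockdown without TVA 7 of the 10 were called lower and 1 higher (7.21% and 6.52% of all tested genes), and the sum was 4189 to 4214 FPKM in siNTC and 3856 to 3886 FPKM in siCreb1 cells. With TVA 4 of the 10 were called lower and 1 higher (5.51% and 4.64% of all tested genes). Platelet and megakaryocyte markers, given with Srgn, had the highest sum of the other cell types. For the rest, the highest summed level in any library was 17.3 FPKM for CD4+ and regulatory T cells, 14.4 for B cells, 24.1 for myeloid cells, 3.16 for mast cells and basophils and 49.9 for gamma delta T cells, and no marker in the files was at 0 in all libraries. The myeloid sum was 21.4 to 24.1 FPKM in siCreb1 plus TVA and 16.6 to 17.3 FPKM in siNTC plus TVA cells, and its part in the results was not tested. Rescaling FPKM to TPM moved the share of called genes that were higher with knockdown from 47.5% to 75.4% without TVA and from 45.7% to 83.8% with TVA, and with TVA in siNTC cells from 60.9% to 72.3%. Quantile normalization moved that share to 64% for knockdown with TVA, and limma-voom to 59.4% without and 59.3% with TVA and, for TVA in siCreb1 cells, from 22.6% to 40.8%.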

How the data were processed

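RNA-seq of 12 libraries (4 groups of 3) was analysed from FPKM values that the authors deposited, 1 file per library, for 54532 genes of GRCm38 with Ensembl identifiers. The aligner, the counting program and the treatment of strand and shared reads are not given in the sources used here. The positions of all 10 members equal those in GENCODE vM21. FPKM times gene length came in whole multiples of 1 step per library for at least 99.995% of values (tolerance 0.01), from which reads were recovered.

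Genes that averaged 1 FPKM or more (11550) were fitted on log2(FPKM + 1) with limma 3.58.1 in R 4.3.3 (mean-variance trend, 1 coefficient per group, no covariates). This scale understates changes of low genes. P-values were Benjamini-Hochberg adjusted over all tested genes, with a threshold of 0.05. Percentages of genes called come from the same fit. Gzmk and Creb1 were compared with exact permutation tests; 3 libraries against 3 cannot give p below 0.1. The fits were tested on simulated data. Read totals set counting error only.

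The 10 members, 6 wider lists and marker lists were chosen with earlier results of these data known. The text names the members, Creb1, fixed relatives (Gzmd to Gzmg, Gzmm, Gzmn, Serpinb9b, Serpinb6a), the motifs TGACGTCA and TGACG, and at most 3 called genes per wider list and comparison with the largest changes. Tbx21 and Eomes, which were not called, and Ncr1, Klra8, Klrb1c, Cd160, Ppbp and Pf4 were named after their values were seen. The settings also tried were 0.1 as pseudocount, all genes above 0, a minimum mean of 5 FPKM, quantile normalization, TPM, limma-voom on recovered reads, no trend, a replicate block, only the libraries compared, and leaving out each library. Promoters came from RefSeq. Plots were made in Python 3.11.15 (matplotlib 3.10.9).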

Additional observations from a re-analysis of the deposited data

Results flagged for a closer look

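For 3 cytotoxic granule genes the effect of TVA differed between siCreb1 and siNTC cells by the test of the difference itself (limma interaction, Benjamini-Hochberg adjusted p under 0.05). The difference on the log2 scale, siCreb1 minus siNTC, was −0.38 for Gzmb, −0.43 for Serpinb6b and −0.12 for Nkg7. In siNTC cells all 3 libraries with TVA lay above all 3 without it for each gene. In siCreb1 cells all 3 libraries with TVA lay below all 3 without it for Gzmb and Serpinb6b, and those of Nkg7 overlapped. These orders come from the same libraries as the test and are not separate support. Gzma, Gzmc, Prf1 and Serpinb9 also separated in siCreb1 cells without a call, and the share of all tested genes that separate is not given here. The siCreb1 cells without TVA already differed from siNTC cells for these genes. The Nkg7 value passed the threshold in 3 of 8 alternatives and 1 of 12 fits without a library. With 3 libraries per group, single libraries that stand apart were not tested for.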

How the results depend on the processing

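The number of members called for TVA in siNTC cells was 3, and 1 (Gzmb) in a fit of only the libraries compared, with a range of 2 to 3 without a library. For knockdown without TVA it was 5, and 3 with all genes above 0, with no mean-variance trend and with only the libraries compared, with a range of 3 to 5 without a library (3 without siNTC replicate 1, siCreb1 replicate 1 or siCreb1 replicate 3). For knockdown with TVA it was 2, and 1 with all genes above 0, with limma-voom, with the replicate block and with only the libraries compared. It was 0 in limma with TPM, where 3 members and 2635 of all 11550 tested genes had an unadjusted p under 0.05. Without a library it was 1 to 2. For the interaction it was 3, with a range of 2 to 3. The count for TVA in siCreb1 cells was 0 in every alternative in limma and limma-voom, with 3 to 5 of the members at an unadjusted p under 0.05, and 1 to 5 without a library (1 without siCreb1 plus TVA replicate 1, 2 without siCreb1 replicate 3 or siCreb1 plus TVA replicate 3). Such a p was found for 861 to 1352 of all genes in the alternatives that tested 11550 genes, and for 853 to 1201 without a library. Causes of these changes were not tested, except that a fit of only 6 libraries has fewer samples. Both Creb1 values kept their direction and call in all alternatives.

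Same-numbered libraries deviated together little (correlations of −0.059 to 0.06 over 18 pairs of libraries), so the numbers were not taken as pairs. The replicate block changed the members called to 4 for knockdown without TVA (Prf1 lost) and to 1 for knockdown with TVA (Serpinb6b lost).

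Signs turned only for values that were not called. Srgn with TVA in siCreb1 cells was 0.01 with quantile normalization, Nkg7 in the same comparison 0.00081 with TPM, 0.01 with limma-voom and −0.02 to 0.0017 without a library, and Nkg7 for knockdown with TVA 0.02 with quantile normalization and 0.02 with TPM. Without a library, Prf1 with TVA in siNTC cells ranged from −0.07 to 0.07 and the Srgn interaction from −0.01 to 0.06. The Gzmk difference with TVA over both siRNAs was −0.20 on the log2(FPKM + 1) scale, −0.27 to −0.15 without a library, and passed 0.05 only without siCreb1 plus TVA replicate 1.

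Over all tested genes, calls for TVA in siNTC cells numbered 852, and 563 with all genes above 0, 556 with TPM and 368 with only the libraries compared. For TVA in siCreb1 cells they numbered 62, and 157 with limma-voom, 37 with TPM, 34 with the replicate block and 39 with only the libraries compared. For knockdown without TVA they numbered 1586, and 992 with all genes above 0 and 817 with only the libraries compared. With TVA they numbered 1172, and 683 with all genes above 0 and 740 with TPM. The interaction called 259 genes, and 152 with TPM and 446 with limma-voom. Depth limits Gzmk (1 to 19 reads) and Gzmc (48 to 103 reads) most.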

Other observations

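Ratios of granule transcripts are given here without a test, as they were chosen after their values were seen. Each of them holds Gzmb, so they are not separate from the Gzmb values above. The siNTC plus TVA and siCreb1 plus TVA libraries overlapped in all of them. Prf1 FPKM divided by Gzmb FPKM was 0.137 ± 0.0142 in siNTC, 0.111 ± 0.00686 in siNTC plus TVA, 0.0767 ± 0.00164 in siCreb1 and 0.0976 ± 0.0147 in siCreb1 plus TVA cells (SD, n = 3). The siCreb1 libraries, at 0.0749 to 0.0781, lay below all others, and the siNTC libraries, at 0.122 to 0.151, above all others. Gzma FPKM divided by Gzmb FPKM was 0.179 ± 0.0151 in siNTC, 0.143 ± 0.025 in siNTC plus TVA, 0.102 ± 0.0164 in siCreb1 and 0.139 ± 0.0181 in siCreb1 plus TVA cells (SD, n = 3). Gzmb made up 74.5% to 75.6% of the summed FPKM of the 10 granzyme genes in siNTC, 76.5% to 79.3% in siNTC plus TVA, 81.4% to 82.0% in siCreb1 and 77.3% to 79.4% in siCreb1 plus TVA cells.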
